A study of Danio rerio with 6 samples.

Results

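The proteasome genes described here are the 57 genes whose name in the deposited tables starts with psm, a letter from a to g and a digit, out of 31886 named genes. The rule uses the name and no measured value, and 52 of the genes reached the mean of 0.1 FPKM needed for a test. FPKM, the fragments per kilobase of transcript scaled to the mapped fragments of the sample, corrects for transcript length and sequencing depth, so that levels of different genes can be compared per length. Each value is the sum over the transcripts that carry the gene's name, divided by a scaling factor of its pool, and is called scaled FPKM.

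The study disrupted *zrsr2*, which encodes a protein of the minor spliceosome, in zebrafish of the Tab5 strain and compared the RNA of mutant and wild-type (WT) embryos. The mutant samples were 3 pools of *zrsr2* hg129/hg129 embryos (clutches 3, 4 and 7, from in-crosses of heterozygous fish), and the WT samples were 3 pools of embryos from their WT siblings (clutches 12, 13 and 15). Each pool held the bodies of 10 embryos at 3 days post fertilization (dpf), after the heads had been taken off for genotyping, and all mutant embryos carry the same single CRISPR/Cas9 allele, hg129. Values of single pools are given for mutant clutches 3, 4 and 7 in this order, then for WT clutches 12, 13 and 15. The genotypes came from separate clutches and crosses, and by the study's methods RNA integrity was higher in each WT pool than in each mutant pool. Neither can be told apart from genotype here. In RNA of whole bodies, fewer cells of a type and less RNA per cell cannot be told apart either. It is not stated whether the clutches of a genotype shared parents, and p-values measure the spread between these pools only.

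The proteasome is the protease of cytosol and nucleus that breaks down proteins tagged with ubiquitin. Its core particle is a barrel of alpha rings, which form the gate, and beta rings, which hold the cutting sites. A regulatory particle sits on the end of the barrel, with a base, whose ring of ATPases unfolds the substrate, and a lid, which removes the ubiquitin. Vertebrate cells exchange the cutting subunits for inducible ones under interferon, and other activators can take the place of the regulatory particle.

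Coverage times transcript length came to 8.855 to 9.168 gigabases in mutant pools and 7.505 to 9.255 gigabases in WT pools, and the number of reads behind an FPKM is not given in the tables. The scaling factors were 0.860 to 0.982 in mutant pools and 1.066 to 1.116 in WT pools. *zrsr2* itself had 0.596, 0.808 and 1.1 scaled FPKM in mutant pools, against 1.30, 1.37 and 1.25 in WT pools (log2 fold change -0.62, SE 0.23, adjusted p = 0.173 from limma), with no overlap. Muscle genes were abundant in all pools (summed level of the 5 markers 30316 to 40060 in mutant pools, 22810 to 24000 in WT pools). Of their 6 tested entries 4 had a fold change above 0 and 2 below 0. The low entry of *myhz1.1* on chromosome 22 had 0.994, 0.784 and 0.898 in mutant pools, against 2.5, 1.61 and 1.86 in WT pools (adjusted p = 0.0477 from limma). Its more abundant entry on chromosome 5 had 14.4, 521 and 629, against 639, 409 and 450 (adjusted p = 0.548). The 3 exocrine pancreas markers summed to 10.9 to 35.2 scaled FPKM in mutant pools and 217 to 303 in WT pools, and all 3 were lower in mutants at an adjusted p below 0.05. Of the 3 liver markers all had estimates below 0, and 1 had an adjusted p below 0.05 (*fabp10a*, 0.016 from limma). *tfa* had 491, 339 and 334 in mutant pools, against 732, 868 and 656 in WT pools, without overlap. Its log2 fold change was -0.97 (adjusted p = 0.059 from limma). The liver sums, mostly *apoa2*, were 4762 to 9120 in mutant pools and 7931 to 9317 in WT pools. Of the 3 skin markers all had estimates above 0, and 1 had an adjusted p below 0.05 (*krt4*, 0.0355 from limma). The skin sums, mostly *krt4*, were 5407 to 6175 in mutant pools and 2290 to 2756 in WT pools. Both *cyt1* (90.5 to 815, against 62.8 to 322) and *krt5* (29.7 to 185, against 10.9 to 141) overlapped between genotypes. The 11 leukocyte markers, of which none was at 0 in all pools, summed to 64.4 to 85.8 in mutant pools and 55.4 to 68.4 in WT pools. The part of these tissue differences in the proteasome values was not tested.

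The proteasome genes were abundant, and no difference between genotypes was detectable in any of them after adjustment. The median level of the 52 tested genes was 32.8 scaled FPKM, against 1.47 over all 20018 genes tested, which puts it at the 95.1 percentile. All 57 genes together summed to 1951, 1829 and 1715 scaled FPKM in mutant pools and to 1552, 1755 and 1812 in WT pools. Their mean was 1832 ± 118 in mutants and 1706 ± 137 in WT (SD, n = 3 pools each), and the genotypes overlapped. The plot of levels shows how far the parts of the complex lie from each other.

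**Figure D1:**
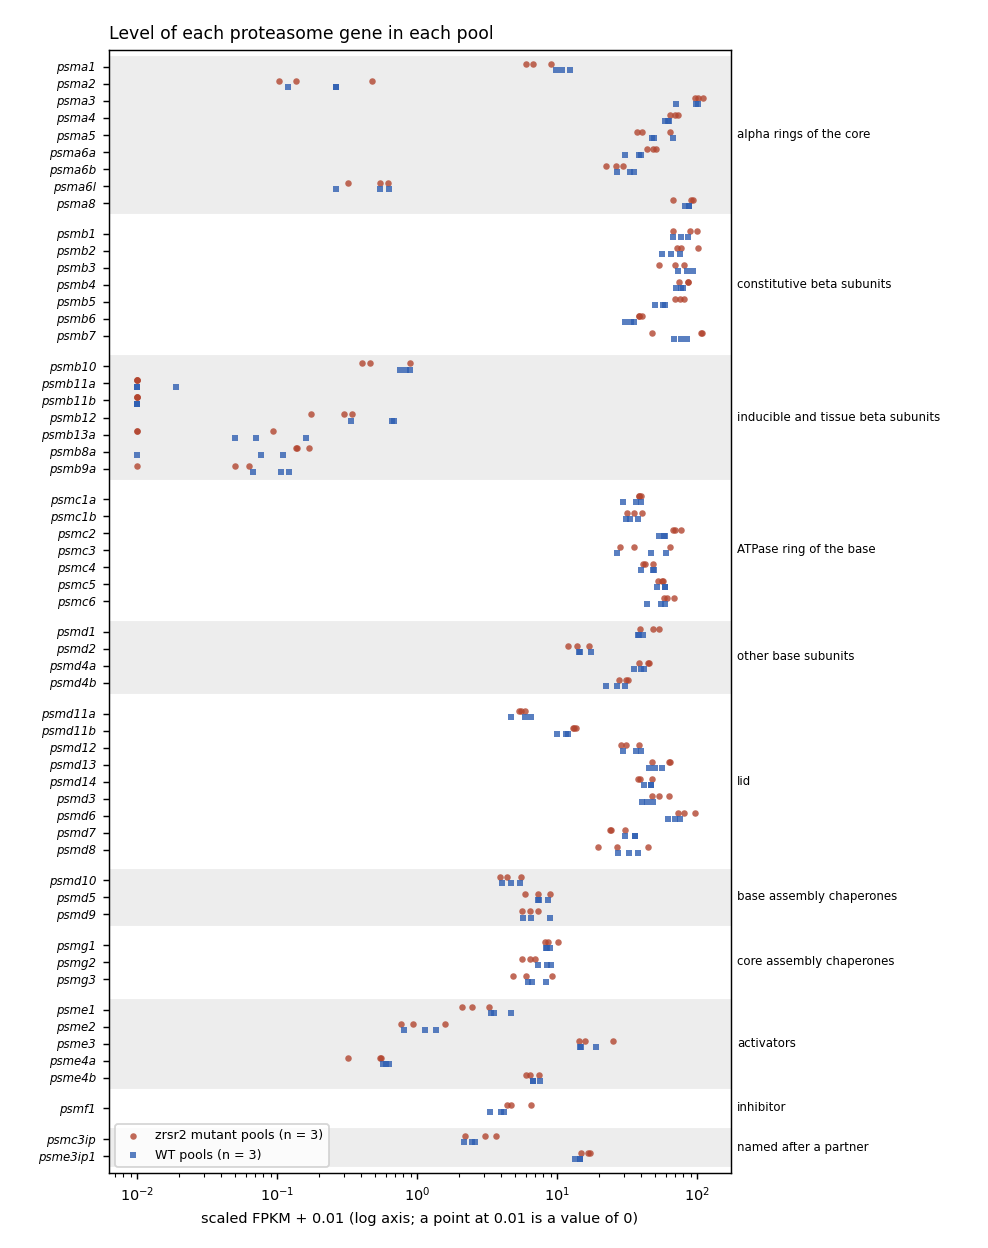
Level of each of the 57 genes in each pool, as scaled FPKM + 0.01 on a log axis, with zrsr2 mutant pools as circles above WT pools as squares (3 each) and genes grouped by part of the complex. Most structural subunits lie above 10 scaled FPKM in all pools, while inducible and tissue beta subunits lie below 1.

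A call needed a change of at least 1 on the log2 scale together with an adjusted p below 0.05 (limma on log2(scaled FPKM + 0.1), two-sided, Benjamini-Hochberg adjustment over 20018 genes). Of the 52 proteasome genes 0 were called, where 2.80% of all genes were (561 of 20018). An adjusted p below 0.05 whatever the fold change was also reached by 0 of 52, against 3.69% of all genes, and limma-voom on estimated reads gave 0 as well. At an unadjusted p below 0.05 there were 8 of 52 (15.4%), against 23.0% of all genes. Of these 8, 3 had higher estimates in mutants (*psmb5*, *psma6a* and *psmc2*, against 10.5% of all genes) and 5 had lower ones (*psma1*, *psmb12*, *psme1*, *psmd7* and *psmg2*, against 12.5%). The fold change was above 0 in 26 genes and below 0 in 26. The median log2 fold change was 0.02, beside 0.01 over all genes, and the median size of the change without its sign was 0.18, beside 0.32. The 3 mutant pools did not overlap with the 3 WT pools in 13 of 52 genes (25%), where 30.6% of all genes did not overlap. In 8 of the 13 the mutant pools were above (14.6% of all genes) and in 5 below (16.0%).

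The intervals of these differences were narrow for most subunits. The 95% confidence interval lay within a 2-fold change in either direction for 46 of the 52 genes (88.5%), against 55% of all genes. The exceptions were *psma1*, *psma2*, *psmb10*, *psmb12*, *psmc3* and *psme1*. The median half-width of the interval was 0.39 on the log2 scale, with a range of 0.26 to 1.14. These intervals hold for single genes and are not adjusted for the number of genes tested.

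**Figure D2:**
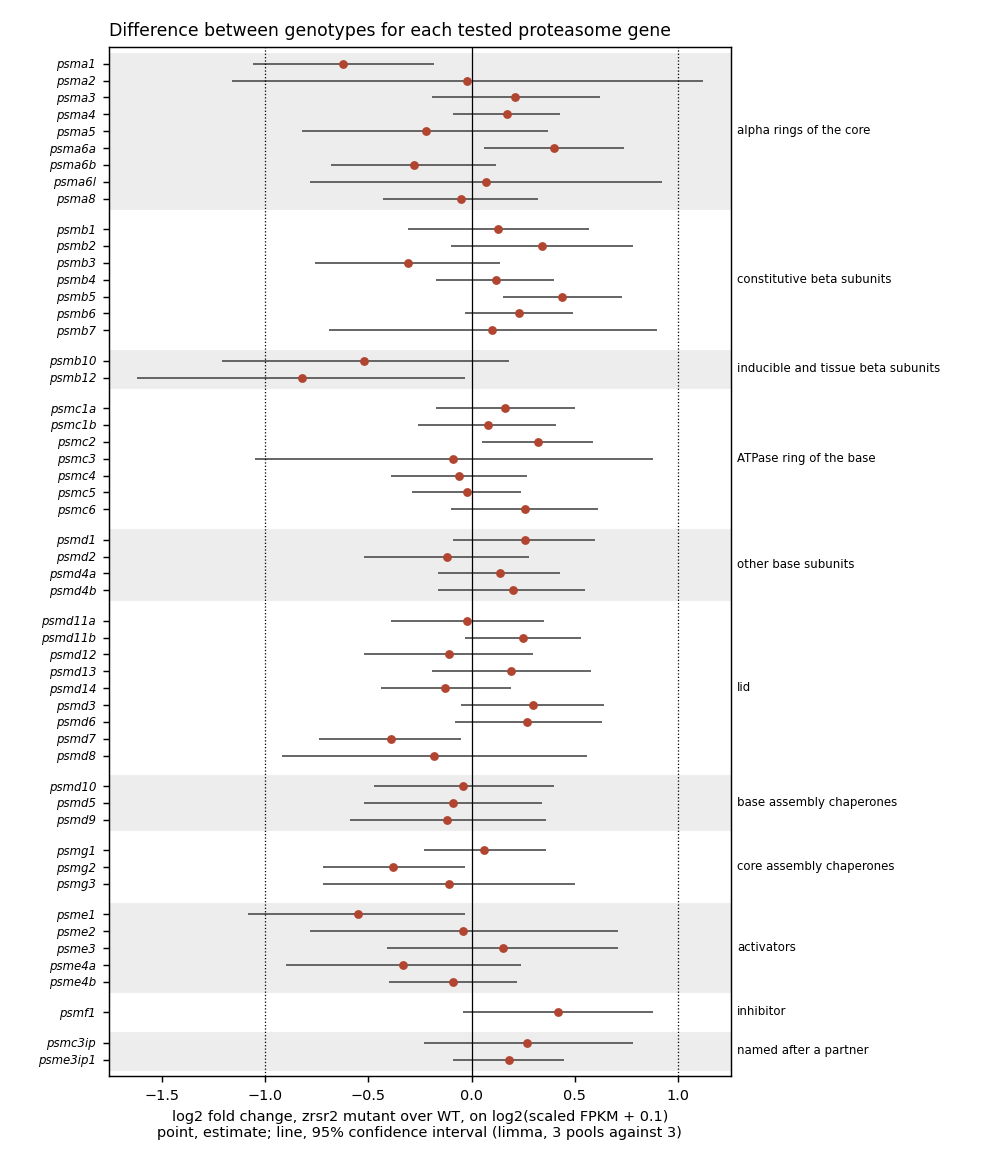
Log2 fold change of zrsr2 mutant over WT for each of the 52 tested genes (point) with its 95% confidence interval (line, limma, 3 pools against 3), grouped by part of the complex, with dotted lines at a 2-fold change. The estimates run from -0.82 for psmb12 to 0.44 for psmb5, with 26 on each side of 0.

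The 9 alpha genes make the gated outer rings of the core. Their mean levels spanned 0.217 scaled FPKM (*psma2*) to 96.3 (*psma3*, the highest of all members), with a median of 42.1. Of the 9, 4 had a fold change above 0 and 5 below 0 (median log2 fold change -0.02). *psma3* had 110, 101 and 97.4 scaled FPKM in mutant pools, against 70.5, 97.8 and 101 in WT pools, so that the genotypes overlapped (log2 fold change 0.21, 95% interval -0.19 to 0.62). *psma8*, for which RefSeq lists *psma7* as a synonym, overlapped too, at 90.6, 93.1 and 67.1 in mutant pools and 82.1, 88.1 and 87.2 in WT pools (-0.05, -0.43 to 0.32).

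*psma1* was followed in detail because the study's intron tables name it together with *psmc4*. U12-type introns are the class spliced by the minor spliceosome. *psma1* lies on the minus strand of chromosome 25 (GRCz11, 37483308 to 37489928) and has 1 named transcript, of 10 exons. That transcript had 5.97, 9.0 and 6.75 scaled FPKM in mutant pools, against 10.9, 9.90 and 12.4 in WT pools. Every mutant pool was below every WT pool, and the mean was 7.24 ± 1.57 in mutants and 11.1 ± 1.25 in WT (SD, n = 3 pools each). The log2 fold change was -0.62 (SE 0.18, 95% interval -1.06 to -0.18) with an adjusted p of 0.114 from limma, which is not a call.

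The named transcript is the smaller share of what was assembled at the *psma1* locus. There, 2 unnamed transcripts put together from the reads, with 17 and 21 exons, overlap the gene on its strand. Both reach upstream of its annotated start, to 37501371 and 37499832, so how much of them is *psma1* is not known. Together they had 23.3, 12.7 and 16.3 scaled FPKM in mutant pools, against 15.7, 9.95 and 13.5 in WT pools. They took 79.6%, 58.6% and 70.7% of the sum of named and unnamed in mutant pools and 59.1%, 50.1% and 52.1% in WT pools, an overlap of 1 mutant pool with the WT range. The log2 ratio of unnamed to named FPKM was higher by 1.02 in mutants (SE 0.49, adjusted p = 0.468 from limma over 8073 genes with such a transcript). Named and unnamed together came to 29.2, 21.7 and 23.0 in mutant pools and 26.6, 19.9 and 25.9 in WT pools. Over the whole assembled locus, which also takes in the gene CABZ01088346.1, the log2 fold change was -0.05 (SE 0.14, adjusted p = 0.841 from limma). The locus fit used scaling factors of its own, under which *psma3*, with the same FPKM, had 0.14, against 0.21 in the gene fit. With this small shift, the lower level of the named *psma1* transcript was not seen in the locus sum.

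*psmc4* encodes an ATPase of the base. It lies on chromosome 16, no unnamed transcript overlaps it, and nearly all of its FPKM belongs to 1 transcript of 11 exons. *psmc4* had 48.5, 42.5 and 41.0 scaled FPKM in mutant pools, against 39.6, 49.5 and 48.8 in WT pools. The genotypes overlapped, with a log2 fold change of -0.06 (SE 0.14, 95% interval -0.39 to 0.27, adjusted p = 0.832 from limma). Reads inside introns were not analysed here, so neither gene's intron was measured.

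*psma6a* and *psma6b*, the copies of another alpha gene on chromosomes 17 and 20, leaned in opposite directions. *psma6a* had 48.6, 51.1 and 43.7 scaled FPKM in mutant pools, against 30.8, 38.3 and 40.0 in WT pools, with no overlap (log2 fold change 0.40, SE 0.14, adjusted p = 0.165 from limma). *psma6b* had 26.5, 29.6 and 22.2 in mutant pools, against 26.7, 35.4 and 33.1 in WT pools, with an overlap (-0.28, SE 0.16, adjusted p = 0.358). The *psma6a* level was 1.83, 1.73 and 1.96 times that of *psma6b* in mutant pools, against 1.15, 1.08 and 1.21 times in WT pools, so that the ratio did not overlap between genotypes. In a fit across all 2218 pairs of genes whose names differ by a final a or b, added after the values had been seen, the log2 ratio was higher by 0.68 in mutants (SE 0.17, 95% interval 0.27 to 1.08, adjusted p = 0.0863 from limma), where 1.67% of all pairs had an adjusted p below 0.05. Its adjusted p was 0.0335 with a pseudocount of 1 FPKM, 0.0953 with one of 0.01 FPKM and 0.0545 with a filter of 1 FPKM. With a pool left out it was 0.122 to 0.221. It was 0.0395 with unnamed transcripts added, but none overlaps either copy, so the ratio stayed at 0.68 and only other pairs differed. Reads could have been divided between close copies, and how many were is not known.

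The other duplicated pairs kept closer ratios. *psmc1a* and *psmc1b*, an ATPase pair, differed in log2 ratio by 0.09 between genotypes (95% interval -0.35 to 0.52), and *psmd4a* and *psmd4b*, a ubiquitin receptor pair, by -0.06 (-0.46 to 0.34). For *psmd11a* and *psmd11b*, a lid pair, the difference was -0.27 (-0.69 to 0.16, adjusted p = 0.43 from limma), and each mutant pool was below each WT pool. *psmd11b* had 12.9, 13.6 and 13.2 scaled FPKM in mutant pools, against 9.95, 11.9 and 11.6 in WT pools (log2 fold change 0.25, adjusted p = 0.267), while *psmd11a* overlapped. For *psme4a* and *psme4b*, the copies of the activator PA200, the difference was -0.24 (-0.81 to 0.33).

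**Figure D3:**
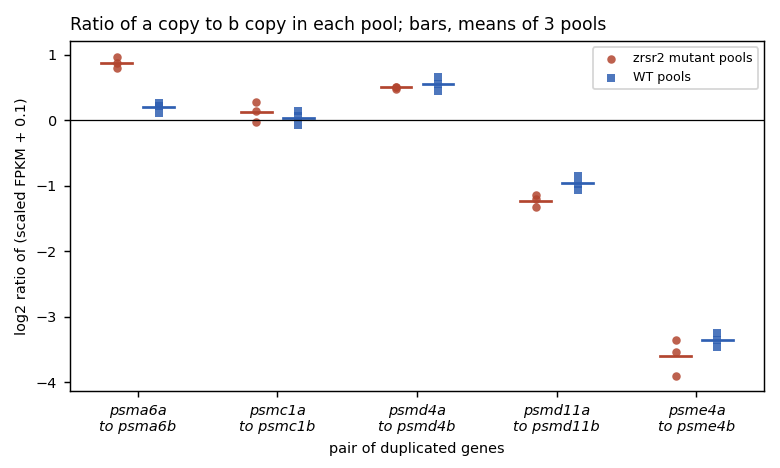
Log2 ratio of the a copy to the b copy of 5 duplicated proteasome genes, on scaled FPKM + 0.1, in each zrsr2 mutant pool (circles, left) and WT pool (squares, right), with bars at the mean of 3 pools. For psma6 the mutant pools lie at 0.79 to 0.97 and the WT pools at 0.11 to 0.27.

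The 7 constitutive beta genes were the most abundant part of the complex, with mean levels of 36.1 to 82.1 scaled FPKM. Of the 7, 6 had a fold change above 0 and 1 below 0 (median log2 fold change 0.13). Their sum was 578, 486 and 500 in mutant pools, against 430, 480 and 492 in WT pools, with an overlap. *psmb5*, the chymotrypsin-like cutting subunit, on chromosome 2 (38373272 to 38392575), had the highest fold change of all members. It had 75.7, 69.4 and 81.0 scaled FPKM in mutant pools, against 50.3, 59.3 and 57.1 in WT pools. All mutant pools were above all WT pools, with a mean of 75.4 ± 5.76 in mutants and 55.6 ± 4.66 in WT (SD, n = 3 pools each). The log2 fold change was 0.44 (SE 0.12, 95% interval 0.15 to 0.73) and the adjusted p 0.101 from limma, the lowest of all members and not a call.

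*psmb6*, the caspase-like cutting subunit, had 38.3, 40.4 and 38.3 scaled FPKM in mutant pools, against 35.5, 30.5 and 33.9 in WT pools, also without overlap (log2 fold change 0.23, SE 0.11, adjusted p = 0.269 from limma). *psmb2*, a subunit without a cutting site, had 102, 72.5 and 76.6 in mutant pools, against 56.6, 64.9 and 76.0 in WT pools, with an overlap (0.34, SE 0.18, adjusted p = 0.319). *psmb7*, the trypsin-like cutting subunit, varied most among the 7. Its named transcripts had 106, 47.6 and 109 scaled FPKM in mutant pools, against 76.2, 84.9 and 68.6 in WT pools (0.10, 95% interval -0.69 to 0.90). An unnamed transcript of 8 exons at *psmb7* held 22.2, 56.0 and 0 in mutant pools and 0, 0 and 29.0 in WT pools, so that the low named value of mutant clutch 4 stood beside a high unnamed one. With both added, *psmb7* had 128, 104 and 109 in mutant pools, against 76.2, 84.9 and 97.6 in WT pools, which did not overlap (0.38, SE 0.15, adjusted p = 0.171 from limma with unnamed transcripts added).

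The inducible and tissue beta genes were below 1 scaled FPKM in all pools. The roles given for *psmb8a*, *psmb9a*, *psmb10*, *psmb11a* and *psmb11b* are known from mammals. *psmb10*, the inducible partner of *psmb7*, had 0.393, 0.875 and 0.448 scaled FPKM in mutant pools, against 0.883, 0.752 and 0.820 in WT pools, with an overlap (log2 fold change -0.52, SE 0.29, adjusted p = 0.338 from limma). *psmb12*, for which RefSeq gives the synonym beta1t, had 0.164, 0.292 and 0.333 in mutant pools, against 0.654, 0.677 and 0.326 in WT pools. It had the lowest fold change of all members (-0.82, SE 0.33, 95% interval -1.62 to -0.03, adjusted p = 0.204), and mutant clutch 7 overlapped with WT clutch 15. The other 5 genes of this part were below the mean of 0.1 FPKM and were not tested. *psmb8a*, the inducible partner of *psmb5*, had 0.127, 0.159 and 0.128 in mutant pools and 0, 0.0671 and 0.101 in WT pools. *psmb9a*, the inducible partner of *psmb6*, had 0, 0.0527 and 0.0403 in mutant pools and 0.0960, 0.112 and 0.0572 in WT pools. *psmb13a* was listed at 0 in 2 of 3 mutant pools, at 0.0844 in clutch 3, and at 0.0402 to 0.151 in WT pools. The thymus genes *psmb11a* and *psmb11b* were listed at 0 in all pools, except for *psmb11a* at 0.00902 in WT clutch 12. *psmb8a*, *psmb13a*, *psmb12* and *psmb9a* lie together on chromosome 19 between 7105838 and 7144585. There the spans of *psmb8a* and *psmb13a* overlap on the minus strand, through transcripts that were at 0 in all pools. The transcripts that held their FPKM (7105838 to 7110617 and 7111779 to 7115229) do not overlap.

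The ratio of each inducible cutting subunit to its constitutive partner was compared by an exact permutation test on 3 pools against 3, whose smallest two-sided p is 0.1. The log2 ratio of *psmb9a* to *psmb6* (on scaled FPKM + 0.1) was -8.58, -8.05 and -8.10 in mutant pools, against -7.50, -7.17 and -7.76 in WT pools. This difference of -0.77 had no overlap (exact permutation p = 0.1, 0.3 adjusted over the 3 pairs), and its size depends on the pseudocount at these values. The difference was 0.22 for *psmb8a* to *psmb5* (exact permutation p = 0.5) and -0.62 for *psmb10* to *psmb7* (exact permutation p = 0.4), both with an overlap. Of 13 interferon and antigen presentation genes 7 were tested, and 0 had an adjusted p below 0.05 (0 at an unadjusted p below 0.05). The shares over all genes were 3.69% and 23.0%. *tap1*, which carries peptides for antigen presentation, had the largest change of the 7, with a log2 fold change of -0.60 (SE 0.26, adjusted p = 0.237 from limma).

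The 7 genes of the ATPase ring, which unfolds substrates and feeds them to the core, had mean levels of 35.0 to 64.3 scaled FPKM. The range of the alpha genes was wider. Its low end, *psma2*, leaves out an overlapping unnamed transcript. However, *psma6l* was low too, at a mean of 0.477, and at 2.29 to 3.56 with an overlapping unnamed transcript added. Of the 7, 4 had a fold change above 0 and 3 below 0, and the sums were 395, 325 and 332 in mutant pools, against 296, 322 and 360 in WT pools. *psmc2* was the highest, with 77.4, 69.5 and 67.4 in mutant pools, against 53.7, 58.4 and 59.4 in WT pools, without overlap (log2 fold change 0.32, SE 0.11, adjusted p = 0.165 from limma). *psmc5* had the estimate nearest 0, at -0.02 (95% interval -0.29 to 0.24). *psmc3* had 64.0, 28.0 and 35.3 in mutant pools, against 47.0, 26.8 and 60.2 in WT pools, and an unnamed transcript of 11 exons had 10.5, 37.4 and 27.5 in mutant pools, against 6.37, 37.2 and 9.51 in WT pools. The pools low in named *psmc3* were those high in the unnamed transcript in both genotypes. Together they came to 74.5, 65.4 and 62.8 in mutant pools and 53.4, 64.0 and 69.7 in WT pools, with an overlap and a smaller spread.

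The other base genes encode the large scaffold subunits (*psmd1*, *psmd2*) and the ubiquitin receptor (*psmd4a*, *psmd4b*). Their sum was 146, 128 and 128 in mutant pools, against 110, 118 and 131 in WT pools, and the log2 fold changes ran from -0.12 for *psmd2* to 0.26 for *psmd1*. The receptor copies had fold changes of 0.14 (*psmd4a*) and 0.20 (*psmd4b*), with an overlap in both.

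The lid removes ubiquitin from the substrate. Its 9 genes had mean levels of 5.65 (*psmd11a*) to 76.1 (*psmd6*), and sums of 351, 365 and 321 in mutant pools, against 295, 339 and 349 in WT pools. *psmd14*, the deubiquitinase of the lid, had 37.8, 47.5 and 39.1 in mutant pools, against 42.0, 46.6 and 46.7 in WT pools (log2 fold change -0.13, 95% interval -0.44 to 0.19). *psmd7*, which pairs with it, had 24.3, 30.5 and 23.8 in mutant pools, against 30.7, 36.2 and 36.2 in WT pools. The highest mutant pool of *psmd7* was just below the lowest WT pool (-0.39, SE 0.14, adjusted p = 0.173 from limma). With an unnamed transcript added that had 4.39 in mutant clutch 4 and 0 in the other pools, clutch 4 came to 34.9 and the genotypes overlapped. *psmd6*, *psmd14* and *psma5* share chromosome 11 with *zrsr2*, at distances of 6.76, 1.88 and 23.6 Mb, and had fold changes of 0.27, -0.13 and -0.22, with an overlap between genotypes in all 3.

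**Figure D4:**
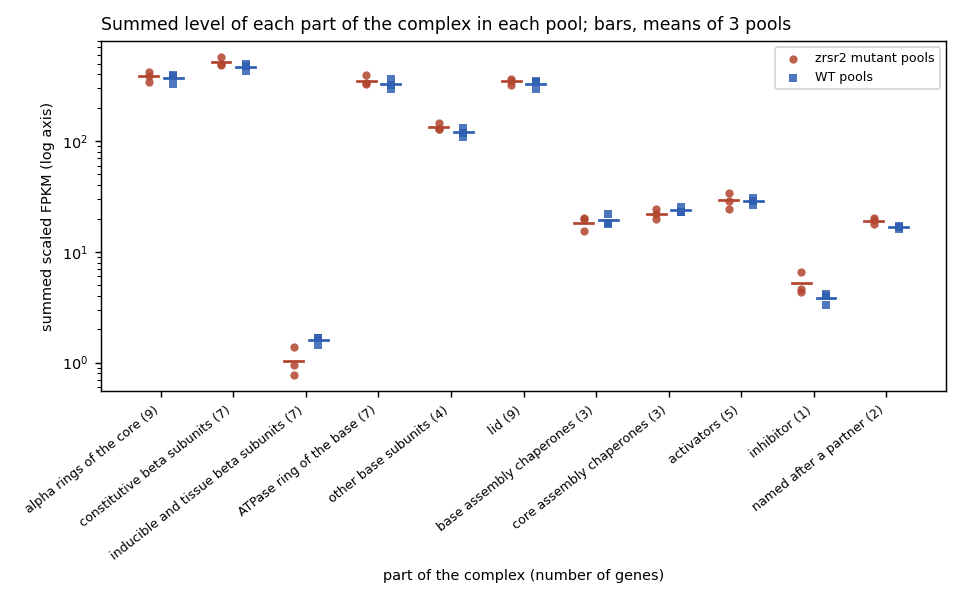
Summed scaled FPKM (log axis) of each part of the complex in each zrsr2 mutant pool (circles, left) and WT pool (squares, right), with bars at the mean of 3 pools and the number of genes in brackets. The structural parts overlap between genotypes. No overlap is seen for the inhibitor, the genes named after a partner, and the inducible and tissue beta subunits (0.768 to 1.38 in mutant pools, 1.45 to 1.68 in WT pools). This last sum comes mainly from psmb10 and psmb12, which are each below 1 scaled FPKM and each overlap between genotypes.

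The assembly chaperones leave or are degraded once the particle is built. They were less abundant than most structural subunits, of which 32 of 36 tested were at a mean of 10 scaled FPKM or more. The 3 base chaperones (*psmd5*, *psmd9*, *psmd10*) summed to 19.7, 20.1 and 15.4 in mutant pools, against 18, 18.4 and 22.2 in WT pools. The 3 core chaperones (*psmg1*, *psmg2*, *psmg3*) summed to 21.9, 24.3 and 19.8 in mutant pools, against 22.9, 25.6 and 23.1 in WT pools. *psmg2* had 7.01, 6.42 and 5.6 in mutant pools, against 7.26, 9.01 and 8.50 in WT pools, without overlap (log2 fold change -0.38, SE 0.14, adjusted p = 0.188 from limma).

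Among the activators, *psme1* and *psme2* encode the PA28 cap, which interferon induces in mammals, *psme3* its nuclear relative and *psme4a* and *psme4b* PA200. *psme3* was the most abundant, with 14.4, 24.9 and 15.9 scaled FPKM in mutant pools, against 14.7, 19.1 and 14.9 in WT pools. *psme1* had 2.47, 2.09 and 3.28 in mutant pools, against 4.71, 3.35 and 3.52 in WT pools, without overlap (log2 fold change -0.55, SE 0.22, adjusted p = 0.196 from limma). Its partner *psme2* had 0.761, 0.934 and 1.57 in mutant pools, against 1.35, 1.13 and 0.792 in WT pools, with an overlap (-0.04, 95% interval -0.78 to 0.71). *psme4a* had 0.535, 0.309 and 0.543 in mutant pools, against 0.595, 0.622 and 0.563 in WT pools (-0.33, adjusted p = 0.445), while *psme4b*, the copy with the higher level, overlapped. *psmf1*, an inhibitor of the core in biochemical assays, had 4.38, 4.65 and 6.56 in mutant pools, against 4.00, 4.15 and 3.30 in WT pools, without overlap (0.42, SE 0.19, adjusted p = 0.254).

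The name rule also takes in *psmc3ip* and *psme3ip1*, which are named after a proteasome protein that theirs binds and are not subunits. *psme3ip1* had 16.7, 14.8 and 17.2 in mutant pools, against 14.6, 13.5 and 14.6 in WT pools (log2 fold change 0.18, adjusted p = 0.379 from limma).

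Single transcripts gave no call either. The 57 genes have 107 named transcripts, and 17 unnamed transcripts overlap 14 of the genes on the same strand. Of these 124, 83 were tested among 43672 transcripts, and 0 were called, where 1.22% of all transcripts were (limma with Benjamini-Hochberg adjustment). An unadjusted p below 0.05 was found for 12 of 83 (14.5%), against 16.4% of all transcripts, 8 of them higher and 4 lower in mutants. The lowest adjusted p, 0.12, was that of an unnamed transcript of 5 exons at *psme3ip1*, with 2.06, 1.5 and 1.33 scaled FPKM in mutant pools, against 0.780, 0.464 and 0.600 in WT pools. For the ratio of unnamed to named FPKM, 0 of 14 proteasome genes were called (0 at an unadjusted p below 0.05, against 12.1% of genes), against 0.731% of 8073 genes. *psma2* stood out by level. Its named transcripts held 0.0926, 0.126 and 0.468 scaled FPKM in mutant pools and 0.109, 0.253 and 0.252 in WT pools, while an unnamed transcript of 34 exons in a locus shared with *atad2* had 11.4, 12.8 and 9.27 in mutant pools and 10.7, 12.0 and 12.4 in WT pools. Most of what was assembled over *psma2* thus carries no gene name and was not counted in its level. The unnamed transcript spans 43319342 to 43344859 on chromosome 16, beyond *psma2* (43335696 to 43344859). How much of it belongs to *psma2* is not known.

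**Figure D5:**
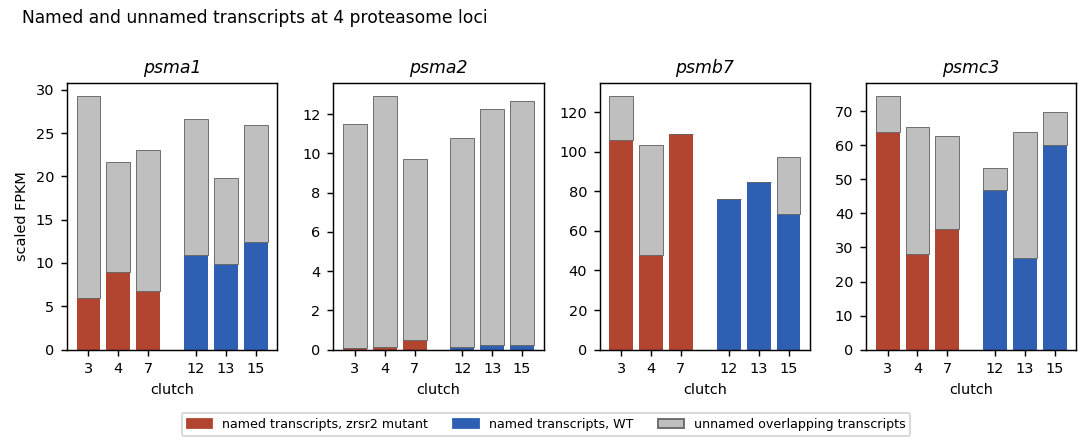
Scaled FPKM of named transcripts (coloured) and of overlapping unnamed transcripts (grey, stacked on top) at psma1, psma2, psmb7 and psmc3, in zrsr2 mutant pools (clutches 3, 4 and 7, left) and WT pools (clutches 12, 13 and 15, right). At psma2 an unnamed transcript that reaches beyond the gene makes up 95.2% to 99.2% of the sum. At psmb7 the unnamed transcript is at 0 in 3 of the 6 pools.

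Genes that work with the proteasome but carry other names were compared from lists. Of 12 tested partners 0 had an adjusted p below 0.05 (limma, 1 at an unadjusted p below 0.05). The shares over all genes were 3.69% and 23.0%. *pomp*, which matures the core, had 107, 83.7 and 87.4 scaled FPKM in mutant pools, against 59.7, 75.4 and 79.3 in WT pools, without overlap (log2 fold change 0.38, adjusted p = 0.233). *zfand5b* encodes a proteasome-bound protein and had the largest change of the partners (0.45, SE 0.12, adjusted p = 0.0864), with 23.3, 20.0 and 23.0 in mutant pools, against 16.0, 17.1 and 15.4 in WT pools. *zfand5a*, its copy, had a fold change of 0.33 (adjusted p = 0.269) and *adrm1*, a ubiquitin receptor of the base, 0.27 (adjusted p = 0.34).

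The transcription factor Nrf1 raises proteasome genes in mammalian cells when the proteasome is inhibited. The list for this pathway held 17 genes, among them *nfe2l2a*, *nfe2l2b*, *keap1a* and *keap1b*, which belong to the related factor Nrf2. Of the 17, 0 had an adjusted p below 0.05 (limma, against 3.69% of all genes) and 3 an unadjusted p below 0.05 (against 23.0%). The median log2 fold change of the list was -0.03. The copies of the Nrf1 gene itself differed in their estimates. *nfe2l1a* had 1.33, 1.31 and 1.85 scaled FPKM in mutant pools, against 2.0, 2.42 and 2.37 in WT pools, without overlap (-0.58, SE 0.18, adjusted p = 0.132), while *nfe2l1b* had a fold change of 0.25 (adjusted p = 0.406). *mafga*, a small Maf partner of such factors, had 0.166, 0.0713 and 0 in mutant pools, against 0.377, 0.346 and 0.388 in WT pools (-1.50, SE 0.38, adjusted p = 0.0824). *keap1b*, of the Nrf2 genes, had a fold change of -0.95 (SE 0.53, adjusted p = 0.339) and *ddi2*, the protease that releases Nrf1, -0.54 (SE 0.30, adjusted p = 0.343).

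Of the 11 tested ubiquitin and shuttle genes 0 had an adjusted p below 0.05 (limma, 4 at an unadjusted p below 0.05). Of all genes 3.69% and 23.0% reached these thresholds. The lowest and the highest estimate of this list belonged to shuttles that carry tagged proteins to the proteasome. *rad23aa* had 0.703, 0.0572 and 0.124 scaled FPKM in mutant pools, against 1.40, 1.07 and 1.13 in WT pools (log2 fold change -2.08, SE 0.59, adjusted p = 0.105). *rad23ab* had a fold change of 0.57 (SE 0.17, adjusted p = 0.121) and *sqstm1*, which links tagged proteins to autophagy, of 0.50 (SE 0.15, adjusted p = 0.126). *uba1*, the ubiquitin-activating enzyme, had an estimate of -1.68 (SE 1.17), and its level was above 0.1 scaled FPKM in WT clutch 15 alone. *rps27a*, a ubiquitin precursor gene, was among the most abundant of this list, and its interval spanned 0 (log2 fold change 0.21, 95% interval -0.24 to 0.65).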

How the data were processed

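Total RNA of 6 pools of zebrafish bodies (3 *zrsr2* hg129/hg129, 3 WT) was sequenced from stranded libraries. Per the submitters' notes and methods, filtered reads were mapped with HISAT2 2.2.1.0 (genome build GRCz11), and StringTie 2.0.3 was used with the Ensembl gene set. Of the 77316 transcripts in its output, 17506 carry no gene name. The FPKM that StringTie gave for each transcript was deposited by the authors. Coverage, the mean depth of a transcript, was also deposited by the authors, without scaling, and served for depth and for the limma-voom alternative. No read counts were used, so no counting error is given.

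FPKM of the transcripts of a gene name on a chromosome were summed and divided by median-of-ratios factors. Genes whose mean reached 0.1 FPKM were compared as log2(FPKM + 0.1) by limma-trend (limma 3.58.1, R 4.3.3) with no covariates and Benjamini-Hochberg adjustment over all features, so that fold changes of low genes are understated. The study's own count test needs read counts, which were not used here. Transcripts, the ratio of unnamed to named FPKM and the ratio of a to b copies were fitted in the same way, each across all such features. The fits were tested on simulated data with the spread of all genes, in which most 2-fold changes of genes did not pass the adjusted threshold. Fewer genes were changed there than the 738 that passed this threshold in the data, which makes the adjustment stricter. The share of 2-fold changes missed in the data is thus not known. A gene without a call can still differ between genotypes. The proteasome genes had narrower intervals (median half-width 0.39, against 0.56 over all genes), and no simulation used their spread alone. Single ratios were compared by exact permutation with scipy 1.17.1 in Python 3.11.15 (pandas 2.3.3, numpy 2.4.6, matplotlib 3.10.9).

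Alternatives were pseudocounts of 1 and 0.01 FPKM, no filter and a filter of 1 FPKM, no scaling, upper-quartile scaling, robust eBayes, limma-voom on reads estimated at 150 bases each, unnamed transcripts added to the only named gene they overlap on their strand, and each pool left out. Whole StringTie loci and the fit of a to b copies were added after the data had been examined. The members and gene lists were chosen with earlier results of these data known. Genes named with values were *psma1* and *psmc4*, members past the adjusted threshold, the 5 highest and 5 lowest fold changes, the cutting subunits and their inducible and tissue forms, the a and b pairs, and up to 4 of the largest changes of each further list. Others (*psma3*, *psma5*, *psma6l*, *psma8*, *psmd1*, *psmd2*, *psmd6*, *uchl5*, *psmc3*, *psmc5*, *psmg2*, *psme2*, *psme3*, *psmd14*, *psma2*, *psme3ip1*, *nfe2l1b* and *rps27a*) were picked after their values had been seen. Gene synonyms came from RefSeq (assembly GRCz12tu), and no coordinates were taken from it. The values of 1 listed gene are not reported here. No sequences are shown.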

Additional observations from a re-analysis of the deposited data

How the results depend on the processing

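No paired analysis was possible because the clutch numbers of mutant and WT pools differ. The counts of proteasome genes called and past the adjusted threshold stayed at 0 under all alternatives, whole loci included. Without scaling between pools the median log2 fold change of the proteasome genes was -0.16 (all genes -0.19) and 40 of 52 estimates were below 0. The log2 ratios of summed levels, mutant over WT, were then -0.17 for alpha subunits (0.05 with scaling) and -0.07 for constitutive beta subunits (0.16). They were -0.13 for the ATPase ring (0.11), -0.07 for other base subunits (0.16) and -0.15 for the lid (0.08). Base and core chaperones came to -0.31 and -0.34 (-0.09 and -0.12), activators to -0.19 (0.02) and the partner-named genes to -0.02 (0.20). Estimates above 0 numbered 12, against 26 with scaling. Directions were followed gene by gene only for the tested members named by the plan. Of these, the same setting turned *psmb7* (-0.12), *psmc1a* (-0.06), *psmc1b* (-0.15), *psmd4a* (-0.09) and *psmd4b* (-0.03), none past the threshold. Members outside that list turned as well and were not followed singly. The difference in log2 ratio of *psmb8a* to *psmb5* was -0.32 with a pseudocount of 1 FPKM and 1.30 with 0.01, and that of *psmb9a* to *psmb6* was -0.30 and -1.83. The cause was not tested beyond these settings.

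With each pool left out, the median log2 fold change was 0.00 to 0.09. Among the members followed singly, *psmb7* turned without mutant clutch 3 (-0.08) or 7 (-0.10, range -0.10 to 0.50). *psmc1b* turned without mutant clutch 3 (-0.02, range -0.02 to 0.17). *psmd11a* turned without WT clutch 13 (0.08), WT clutch 15 (0.01) or mutant clutch 4 (0.01, range -0.16 to 0.08). Other members turned too, as 31 estimates were above 0 without WT clutch 15, against 26 with all pools. At an unadjusted p below 0.05, 1 to 5 proteasome genes had higher and 2 to 3 lower estimates, against 3 and 5 with all pools. Without scaling these counts were 0 and 7, where the median log2 fold change over all genes was also below 0 (-0.19). The shares of all genes at this threshold are not given for these settings, so the counts are not a result about the proteasome genes. The number of transcripts called was 0 to 1, the 1 being an unnamed transcript at *psmc5* without WT clutch 12 (-4.90, adjusted p = 0.0333 from limma), which was at 0 in all mutant pools and in WT clutch 12. The number of all genes called, 561, was 94 to 510 with a pool left out (lowest without WT clutch 12), 281 with a pseudocount of 1 FPKM, 906 without scaling, 856 with unnamed transcripts added and 1031 over whole loci. Read numbers per gene are unknown, so the precision of values below 1 FPKM is too.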

Other observations

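Some genes of the family carry other names in the tables and fall outside the name rule. PSMD2, in capitals, lies on the scaffold KN149818.1 and had 25.1, 20.9 and 23.5 scaled FPKM in mutant pools (clutches 3, 4 and 7), against 21.9, 19.5 and 24.0 in WT pools (clutches 12, 13 and 15), a level above that of *psmd2* (14.3 ± 2.52 in mutants, 15.5 ± 1.80 in WT, SD, n = 3 pools each). PSMD4 overlaps *psmd4a* on chromosome 19 and was at 0 in all pools but mutant clutch 4, where it had 5.59. The gene si:rp71-45k5.4, which RefSeq names *psma2b*, had 8.79, 8.65 and 7.31 in mutant pools and 5.90, 7.85 and 8.70 in WT pools, more than the named transcripts of *psma2* in each pool. None of the 3 had an adjusted p below 0.05 (limma, 0 at an unadjusted p below 0.05).

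Among the 52 tested genes, mutant clutch 4 was the highest of the mutant pools in 22 (42.3%), clutch 3 in 18 (34.6%) and clutch 7 in 12 (23.1%). Over all genes tested these shares were 33.1%, 37.4% and 29.4%. *uchl5*, a deubiquitinase of the regulatory particle, had 8.78, 23.7 and 10.8 scaled FPKM in mutant pools and 10.5, 12.8 and 10.9 in WT pools, and mutant clutch 4 stood apart from the other 5 pools.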
